A study of Homo sapiens with 24 samples.

Results

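The Krüppel-like factors (KLFs) described here are 10 genes, *KLF2*, *KLF3*, *KLF4*, *KLF5*, *KLF6*, *KLF9*, *KLF10*, *KLF11*, *KLF13* and *KLF15*. They were chosen by symbol, as the transcript rows of these genes in a table of RNA-seq counts, summed per gene. They hold 25 of the 119207 transcripts of the table and are 10 of the 33127 genes to which those transcripts were joined. All 10 had enough counts to be among the 15337 genes tested. The cells were A549, an established human line from a lung adenocarcinoma, exposed to 100 nM dexamethasone (dex), a synthetic glucocorticoid (GC), or to the vehicle ethanol (EtOH, 0.02% of the medium by volume). RNA with poly-A tails was read at 6 times, every 2 hours from 1 to 11 hours, in 24 libraries, 2 for dex and 2 for EtOH at each time. The time points come from the duration given for each library, since the treatment text names 1 hour throughout, and the 2 libraries of a group are labelled biological replicates. The study's methods call the EtOH control paired, without saying which dex and EtOH cultures belong together.

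KLFs are transcription factors that bind GC-rich and CACCC sequences through zinc fingers at their C-terminus, and they share this DNA-binding domain with the SP proteins. They differ in their N-terminal part. *KLF2*, *KLF4*, *KLF5* and *KLF6* encode proteins that recruit acetyltransferases such as p300 and act often as activators, *KLF3* encodes a repressor that works through CtBP, and *KLF9*, *KLF10*, *KLF11* and *KLF13* encode proteins that bind the SIN3A corepressor. *KLF9* and *KLF15* are known as GC target genes in several tissues. In the GENCODE annotation of GRCh38 all 10 are protein-coding genes. The activators are *KLF2* on chromosome 19 from 16324817 to 16327874, *KLF4* on chromosome 9 from 107484852 to 107490482, *KLF5* on chromosome 13 from 73054976 to 73077542 and *KLF6* on chromosome 10 from 3775996 to 3785281. The genes of SIN3A-binding proteins are *KLF9* on chromosome 9 from 70384597 to 70414624, *KLF10* on chromosome 8 from 102648779 to 102655902, *KLF11* on chromosome 2 from 10042849 to 10054836 and *KLF13* on chromosome 15 from 31326855 to 31435665. The other two are *KLF3* on chromosome 4 from 38664196 to 38701042 and *KLF15* on chromosome 3 from 126342635 to 126357442.

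The libraries held between 6708864 and 13748598 counts, with a median of 10109393.5. Of the known GC targets *FKBP5*, *TSC22D3* and *PER1*, 2 were called higher with dex at 1 hour and all 3 at each later time point. *FKBP5*, which encodes a co-chaperone of the receptor, had 40 and 38.5 CPM (counts relative to the library total, scaled by the TMM method) in the dex libraries at 1 hour against 27.5 and 27.4 with EtOH, and 403 and 402 against 25 and 20.6 at 9 hours. The epithelial keratin genes *KRT8* and *KRT18* held at least 14552 counts in every library. The leukocyte genes *PTPRC* and *CD3E* held at most 3 and 0, the endothelial gene *VWF* at most 1 and the fibroblast gene *DCN* at most 5, while *COL1A1*, a collagen gene also used as a fibroblast marker, held 45 to 268. Several of these markers moved with dex. *KRT8*, *KRT18* and *KRT7*, keratin genes of simple epithelia, were called higher at 3 to 11 hours, with log2 fold changes of 0.68 to 1.45 for *KRT8*, 0.68 to 1.15 for *KRT18* and 0.37 to 0.99 for *KRT7*. *AKR1B10* and *NQO1*, reductase genes highly expressed in A549 cells, were called lower at 5, 7 and 9 hours (-0.30, -0.17 and -0.40 for *AKR1B10*, and -0.56, -0.29 and -0.48 for *NQO1*), and the related *AKR1C1* at no time point. *COL1A1* was called higher at 3 hours (0.57) and lower at 5, 7 and 9 hours (-1.20, -1.03 and -1.35). The part of these shifts in the values of the KLF genes was not tested.

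Stretches of promoter are shown because the results turn on these genes: *KLF9* and *KLF6* were higher with dex at every time point, and *KLF15* changed in both directions. Each is the part of the RefSeq window before the start site (GRCh38.p14) that lies outside the gene, on the gene's strand. The *KLF9* stretch is chr9:70414658-70414907, the *KLF6* stretch is chr10:3785282-3785459 and the *KLF15* stretch is chr3:126357443-126357658, all on the minus strand. Capitals mark matches, on either strand, to the GC box GGGCGG, the CACCC box CCACCC, the sequence AGAACA, one arm of the element of the GC receptor, the TATA box TATAAA, the CCAAT box and the E-box CACGTG.
*KLF9*: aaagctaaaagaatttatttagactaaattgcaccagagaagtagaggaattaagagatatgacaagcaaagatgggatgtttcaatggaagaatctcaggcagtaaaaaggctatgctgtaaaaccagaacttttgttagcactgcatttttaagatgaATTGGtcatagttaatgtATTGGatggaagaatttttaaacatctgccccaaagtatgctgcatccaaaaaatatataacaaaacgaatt
*KLF6*: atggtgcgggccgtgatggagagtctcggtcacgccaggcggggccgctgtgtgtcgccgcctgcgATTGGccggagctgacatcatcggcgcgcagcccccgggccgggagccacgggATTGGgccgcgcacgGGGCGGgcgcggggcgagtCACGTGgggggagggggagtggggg
*KLF15*: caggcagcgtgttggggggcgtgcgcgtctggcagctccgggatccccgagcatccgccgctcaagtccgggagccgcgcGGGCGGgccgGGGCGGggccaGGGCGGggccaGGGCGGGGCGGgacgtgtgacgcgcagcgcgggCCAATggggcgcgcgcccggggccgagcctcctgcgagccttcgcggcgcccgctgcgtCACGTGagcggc
Of 300 bases around the start site of *KLF9*, 32.7% were G or C, against 70.7% for *KLF6*, 80.3% for *KLF15* and a median of 58.7% over 35116 such windows. Only 2.59% of the windows were lower in GC than that of *KLF9*. The *KLF9* window held 2 CCAAT matches (found in 34.6% of all windows) and no GC box (45%). The *KLF15* window held 6 GC boxes, 1 CCAAT match and 1 E-box (7.26%), and the *KLF6* window 2 GC boxes, 2 CCAAT matches and 1 E-box. Each window reaches past the stretch shown, so that 1 GC box of *KLF15* and 1 of *KLF6* are not in the letters above. The full GC receptor element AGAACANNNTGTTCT was in no window of the 8 members that had one and in 0.00285% of all windows. Its single arm AGAACA was in 1 of the members' 10 windows, that of *KLF5*, and in 14.8% of all windows. Among the 10 windows a CACCC box (34.3%) was found in that of *KLF13*, a TATA box (11.5%) in one of *KLF5*, and the CRE TGACGTCA (1.85%) in one of *KLF11*. These are matches of letters and not sites of binding.

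Levels of different genes were compared as counts per kilobase of transcript, scaled to the same sum in every library (TPM). With EtOH the highest median was that of *KLF10* at 81.8 TPM (range 69.2 to 111 over 12 libraries). *KLF5* followed at 36.8 (32.5 to 45), *KLF13* at 30.6 (27.7 to 34.4), *KLF6* at 29.3 (25.8 to 35.3) and *KLF3* at 20.1 (15.3 to 22.9). The range of *KLF10* lay above that of *KLF5*, and that of *KLF6* above that of *KLF3*, while the ranges of *KLF5*, *KLF13* and *KLF6* overlapped. *KLF15* had a median of 15.2 TPM and the widest range of the 10 genes relative to it, 8 to 51.5. The lower members were *KLF11* at 8.14, *KLF4* at 5.71, *KLF2* at 2.21 and *KLF9* at 1.44 TPM. From *KLF3* down to *KLF9*, each gene's range overlapped that of the next. With dex the median of *KLF6* was 83.7 TPM (69.4 to 114), beside *KLF10* at 85.1 (33.8 to 111). *KLF9* moved from the last place to the seventh, with a median of 15.1 TPM (5.01 to 19).

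**Figure D1:**
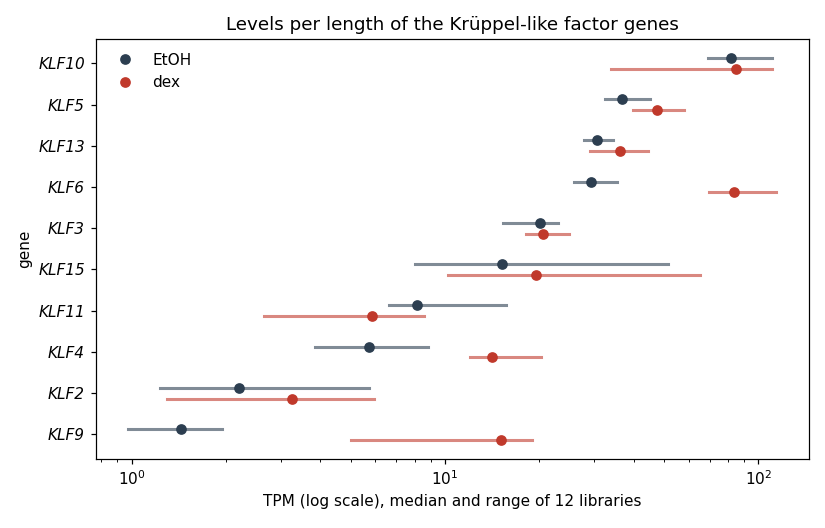
Median level per length (TPM, log axis) of each gene over the 12 EtOH libraries (dark points) and the 12 dex libraries (red points), with lines from the lowest to the highest library. The EtOH and dex ranges of *KLF9*, *KLF6* and *KLF4* do not overlap, while those of the other genes do. The share of all genes without overlap was not counted.

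Dex was set against EtOH at each time point, 2 libraries against 2, over all 15337 genes. Genes whose Benjamini-Hochberg adjusted p did not exceed 0.1 in the quasi-likelihood test of edgeR were called. At 1 hour, 5 of the 10 members were called (4 higher with dex, 1 lower), against 1.06% of all genes tested. Because the members were chosen with earlier results of these data known, such shares describe them and do not test the family. The members called were 4 at 3 hours (14.1% of all genes), 7 at 5 hours (25%), 8 at 7 hours (28.2%), 8 at 9 hours (19.8%) and 5 at 11 hours (9.12%). They split into 3 higher and 1 lower at 3 hours, 6 and 1 at 5 hours, 7 and 1 at 7 hours, 6 and 2 at 9 hours and 4 and 1 at 11 hours. Of all genes, 0.639% were called higher and 0.417% lower at 1 hour, 8.42% and 5.65% at 3 hours, 12.4% and 12.6% at 5 hours, 14.7% and 13.5% at 7 hours, 10.8% and 8.95% at 9 hours, and 5.8% and 3.33% at 11 hours. The members' median log2 fold change was 0.59 at 1 hour and between 0.22 and 0.45 later, while that of all genes was between -0.01 and 0.01. *KLF4*, *KLF6* and *KLF9* were called at all 6 time points, as were 0.678% of all genes, and 8 members were called at 2 or more consecutive time points, as were 20.8%. *KLF3* was called at none. In bulk RNA, fewer cells that express a gene and less RNA per cell cannot be told apart.

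**Figure D2:**
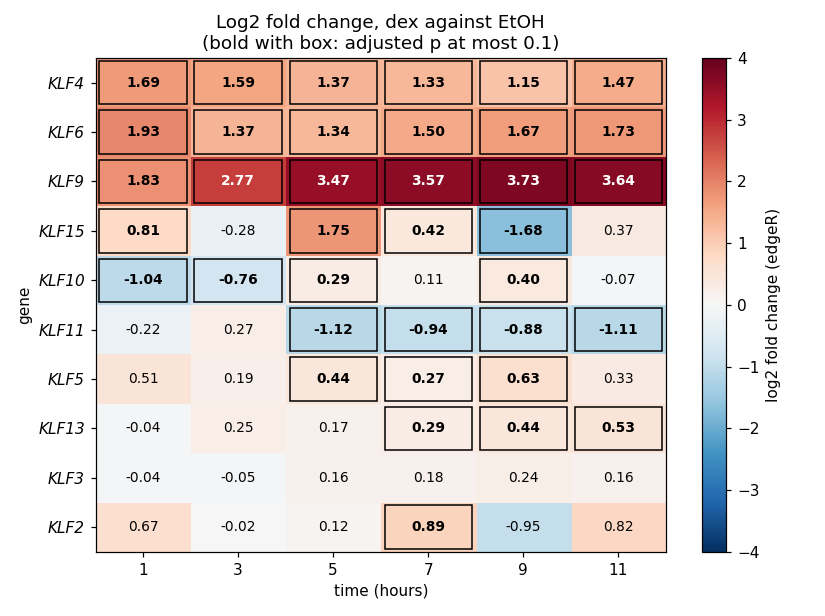
Log2 fold change of dex against EtOH for each gene (rows) and time point in hours (columns), with red for higher and blue for lower with dex and boxed bold values for adjusted p of at most 0.1. *KLF4*, *KLF6* and *KLF9* are boxed and red throughout, and *KLF15* runs from 1.75 at 5 hours to -1.68 at 9 hours.

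*KLF9*, which encodes a SIN3A-binding repressor, showed the largest fold changes of the 10 members from 3 hours on. At 1 hour it had 13.4 and 15.1 CPM with dex against 3.63 and 4.24 (log2 fold change 1.83, standard error SE 0.22, adjusted p = 5.18e-05). At 3 hours it had 32 and 35.2 against 4.65 and 5.14 CPM (2.77, SE 0.17), and at 5 hours 42.5 and 52.1 against 3.78 and 4.66 (3.47, SE 0.17). The level with dex was higher at each of these steps and was 44.1 to 50.5 CPM at 7 and 9 hours, and no dex library overlapped with EtOH at any time. At 7 hours the libraries had 44.1 and 50.5 CPM against 3.44 and 4.51 (3.57, SE 0.16), and at 9 hours 47.5 and 45.5 against 3.83 and 3.2 (3.73, SE 0.17). At 11 hours they had 39.2 and 34.3 against 2.52 and 3.38 CPM (3.64, SE 0.23, adjusted p = 1.81e-06). The mean with dex at 5 hours was 3.32 times that at 1 hour, and the 11-hour mean was 0.79 of that at 9 hours. The effect of dex differed between the 6 time points (adjusted p = 5.48e-05 from one edgeR fit over 24 libraries), as it did for 15.4% of all genes. It was larger at 3 than at 1 hour by 0.93 on the log2 scale (SE 0.26, adjusted p = 0.0464), where 4.88% of all genes passed. Between 3 and 11 hours the difference was 0.85 (SE 0.28, adjusted p = 0.371). The table holds 1 transcript of *KLF9*, so its counts are not split between isoforms.

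*KLF6*, which encodes an activator induced in many cells by injury and growth signals, was called higher at every time point and was highest at the first. At 1 hour it had 253 and 247 CPM with dex and 68.3 and 62.2 with EtOH (log2 fold change 1.93, SE 0.11, adjusted p = 4.06e-09). At 3 hours it had 191 and 179 against 78.7 and 65.2 CPM (1.37, SE 0.11), and at 5 hours 156 and 176 against 64.4 and 66.3 (1.34, SE 0.11). The dex libraries of 1 hour lay above those of all later times, and their mean was 1.51 times that at 5 hours. At 7 hours the values were 192 and 184 against 67.6 and 66.4 CPM (1.50, SE 0.08), at 9 hours 195 and 182 against 61.6 and 58.2 (1.67, SE 0.11), and at 11 hours 207 and 185 against 61.4 and 58.2 (1.73, SE 0.14). The effect of dex differed between time points (adjusted p = 0.0228) and was smaller at 3 than at 1 hour by a log2 difference of -0.58 (SE 0.14, adjusted p = 0.0185). Without EtOH replicate 2 of 1 hour the difference over the 6 time points no longer passed (adjusted p = 0.124). Its counts fell mostly on 2 transcripts, *KLF6*-207 (46.8%) and *KLF6*-206 (46.4%). These span nearly the same bases of the gene, so a read can match either, and each was called higher at all 6 time points. Of the 56380 single transcripts tested, 0.417% were called at 1 hour, 7.1% at 3 hours, 14.7% at 5 hours, 16.2% at 7 hours, 10.4% at 9 hours and 5.06% at 11 hours.

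*KLF4*, known from pluripotent cells and from the differentiation of barrier epithelia, was the third member called higher at every time point, from a lower level. At 1 hour it had 21 and 19.8 CPM with dex and 6.48 and 6.19 with EtOH (log2 fold change 1.69, SE 0.19, adjusted p = 2.19e-05). The values were 15.7 and 15.2 against 4.65 and 5.56 CPM at 3 hours (1.59, SE 0.19) and 12.6 and 13.1 against 5.22 and 4.75 at 5 hours (1.37, SE 0.21). As with *KLF6*, the level with dex was highest at 1 hour, where the mean was 1.59 times that at 5 hours. At 7 hours *KLF4* had 16.6 and 14.6 against 6.88 and 5.69 CPM (1.33, SE 0.18), at 9 hours 18.2 and 14.9 against 7.93 and 7 (1.15, SE 0.19), and at 11 hours 12.4 and 12.8 against 4.16 and 5.02 (1.47, SE 0.23). A difference in its dex effect between time points did not pass (adjusted p = 0.484).

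**Figure D3:**
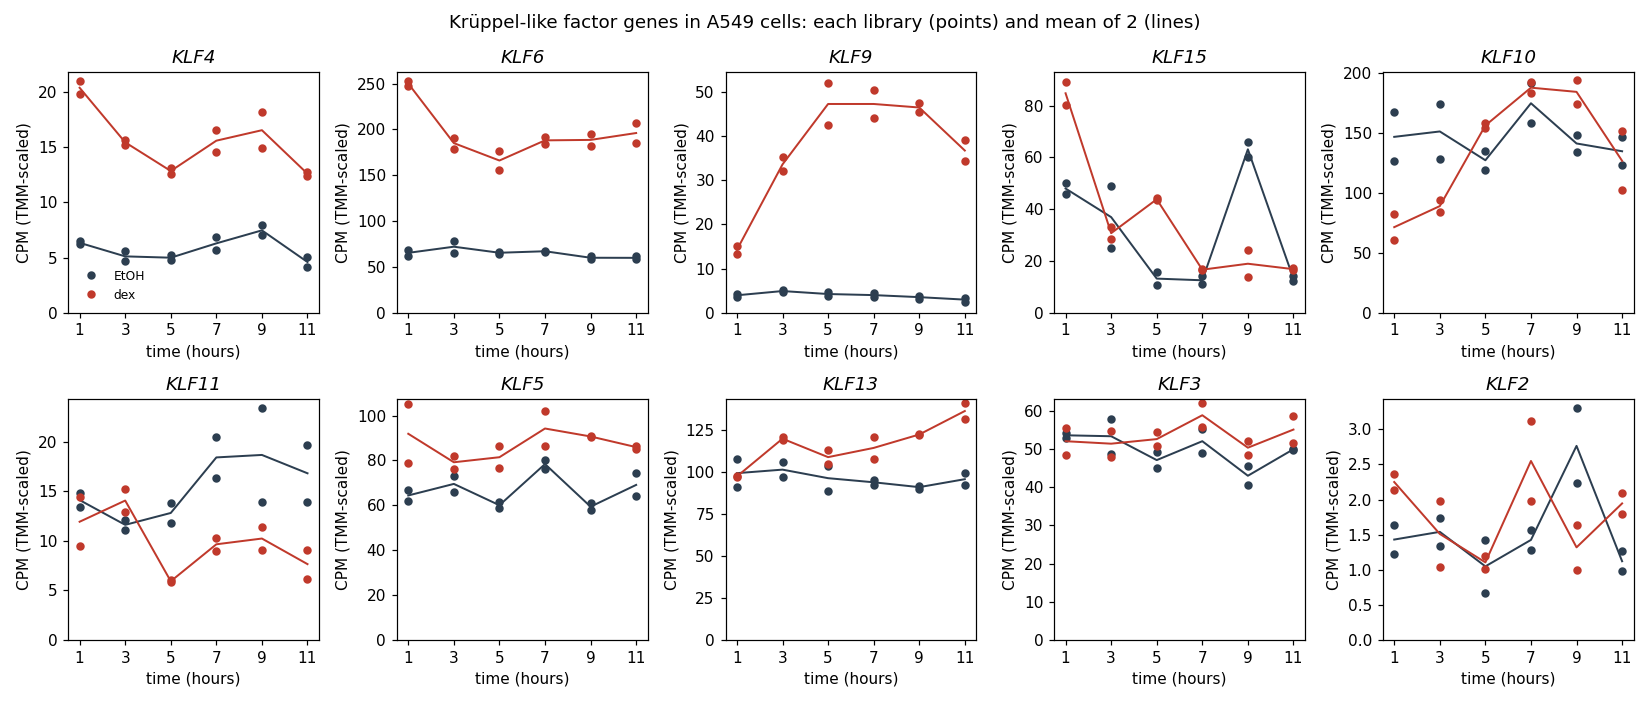
Normalized CPM of each gene against time in hours, with 1 point per library (dark for EtOH, red for dex) and lines through the means of 2 libraries; each panel has its own axis from 0. *KLF9* goes up with dex to 5 hours, *KLF10* starts below EtOH with dex, and *KLF15* is high with EtOH at 1 and 9 hours.

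*KLF5*, which promotes proliferation of epithelial cells, was higher with dex by less. Its dex libraries lay above its EtOH libraries at each time point, and the log2 fold change was 0.44 at 5 hours (SE 0.11, adjusted p = 0.0028), 0.27 at 7 hours (SE 0.09, adjusted p = 0.0297) and 0.63 at 9 hours (SE 0.11, adjusted p = 0.00196). At 9 hours it had 91 and 90.4 CPM with dex and 57.9 and 60.9 with EtOH, at 5 hours 86.4 and 76.5 against 58.7 and 61.4, and at 7 hours 86.5 and 102 against 80.4 and 76.4. At the other time points it had 105 and 78.8 against 67 and 61.8 CPM at 1 hour (0.51, adjusted p = 0.114), 76.3 and 82.1 against 73.1 and 66 at 3 hours (0.19, adjusted p = 0.315), and 85.3 and 86.6 against 74.2 and 64 at 11 hours (0.33, adjusted p = 0.241). At 1 hour it passed in one fit over 24 libraries (0.52, adjusted p = 0.0223) and with no filter on low counts (0.49, adjusted p = 0.0182), and at 11 hours in one fit over 24 libraries (0.32, adjusted p = 0.0873). At 1, 7 and 11 hours the outcome also changed with 1 library left out. Without dex replicate 2 the value was 0.15 at 7 hours (adjusted p = 0.485) and 0.70 at 1 hour (adjusted p = 8.06e-07), and at 11 hours it passed with either dex library left out (0.35 and 0.31). The 7-hour value did not pass with DESeq2 (adjusted p = 0.165), in one fit over 24 libraries (adjusted p = 0.156) or for the transcript with the most counts (adjusted p = 0.146).

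*KLF2*, best known from endothelium, had the lowest CPM of the 10 members, with 0.666 to 3.3 CPM with EtOH and 0.998 to 3.12 with dex. It was called higher at 7 hours (3.12 and 1.98 against 1.28 and 1.57 CPM; log2 fold change 0.89, SE 0.38, adjusted p = 0.0903). This call was lost when any 1 of the 4 libraries was left out, with values between 0.48 and 1.13, and with DESeq2 (adjusted p = 0.443), no filter on low counts (adjusted p = 0.111), one fit over 24 libraries (adjusted p = 0.141) or the transcript with the most counts alone (adjusted p = 0.362). At 9 hours the direction was opposite, with 0.998 and 1.64 against 2.23 and 3.3 CPM (-0.95, SE 0.39, adjusted p = 0.133). The value was -1.21 without EtOH replicate 1. It passed with no filter (-0.97, adjusted p = 0.0961) and in one fit over 24 libraries (-0.97, adjusted p = 0.08). The EtOH mean of *KLF2* was 2.76 CPM at 9 hours and 1.05 to 1.54 at the other times. A difference in its EtOH level over time did not pass in edgeR (adjusted p = 0.315). The part of the EtOH level in the change of direction was not tested.

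*KLF10*, first described as an early gene of TGF-beta signalling, was lower with dex at the first time points and not later. At 1 hour it had 81.8 and 60.7 CPM with dex and 167 and 126 with EtOH (log2 fold change -1.04, SE 0.15, adjusted p = 0.0011). At 3 hours it had 83.6 and 94 against 174 and 128 CPM (-0.76, SE 0.12, adjusted p = 0.000104). The dex libraries were higher later, and their mean at 7 hours was 2.63 times that at 1 hour. At 5 hours *KLF10* was called higher, with 158 and 154 against 135 and 119 CPM (0.29, SE 0.10, adjusted p = 0.0376), and again at 9 hours, with 194 and 174 against 148 and 134 (0.40, SE 0.11, adjusted p = 0.0265). The groups overlapped at 7 hours (183 and 192 against 191 and 158 CPM; 0.11, adjusted p = 0.37) and at 11 hours (151 and 102 against 146 and 123; -0.07, adjusted p = 0.902). The change of the dex effect over time passed (adjusted p = 0.00248), also with each of the 24 libraries left out in turn.
The later values of *KLF10* were less stable than the early ones. The 5-hour call was lost without dex replicate 1 (0.27) or EtOH replicate 2 (0.20). With all libraries kept, it was also lost with DESeq2 (adjusted p = 0.122), in one fit over 24 libraries (adjusted p = 0.33) and for the transcript with the most counts (adjusted p = 0.18). The 9-hour call was lost without dex replicate 1 (0.33) or dex replicate 2 (0.48) and in one fit over 24 libraries (adjusted p = 0.173). At 7 hours a call appeared without EtOH replicate 1 (0.26, adjusted p = 0.0131) and at 11 hours without dex replicate 1 (-0.37, adjusted p = 0.00318). Its counts were split almost evenly between *KLF10*-202 (50.6%) and *KLF10*-201 (49.4%), and both were called lower at 1 and 3 hours. The 2 overlap along most of the gene, so a read can match either.

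*KLF11*, the close relative of *KLF10* that also acts with SIN3A, was lower with dex at the time points where *KLF10* was not. It was called lower from 5 hours on. At 5 hours it had 6.01 and 5.82 CPM with dex and 11.8 and 13.8 with EtOH (log2 fold change -1.12, SE 0.21, adjusted p = 4.34e-05), and at 7 hours 8.98 and 10.3 against 16.3 and 20.5 (-0.94, SE 0.16, adjusted p = 3.01e-05). At 9 hours it had 11.4 and 9.04 against 23.4 and 13.9 CPM (-0.88, SE 0.24, adjusted p = 0.0291) and at 11 hours 9.09 and 6.19 against 19.7 and 13.9 (-1.11, SE 0.25, adjusted p = 0.0163). Before that it had 14.4 and 9.43 against 13.4 and 14.8 CPM at 1 hour (-0.22, adjusted p = 0.943) and 15.2 and 12.9 against 11.1 and 12.1 at 3 hours (0.27, adjusted p = 0.378). The mean with dex at 3 hours was 2.38 times that at 5 hours, and the dex effect differed over the time points (adjusted p = 0.0177), while its difference between 3 and 11 hours was -1.39 (SE 0.34, adjusted p = 0.132). The calls at 5 and 7 hours held without each library in turn. The 9-hour call was lost without dex replicate 1 (-1.02) or dex replicate 2 (-0.69), and the 11-hour call without EtOH replicate 1 (-0.85, adjusted p = 0.236). Its counts were spread over *KLF11*-206 (32.9%), *KLF11*-201 (31.8%) and *KLF11*-205 (31.7%). At 9 hours *KLF11*-206 was not called, with a log2 fold change of -0.43 (SE 0.28, adjusted p = 0.44) where *KLF11*-201 had -1.33 (SE 0.28, adjusted p = 0.00302). These transcripts span nearly the same bases of the gene, so a read can match any of them. The difference between them was not tested.

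*KLF13*, whose protein also binds SIN3A and is known as a regulator in lymphocytes, was called higher at the last 3 time points, by at most 1.44-fold. The log2 fold change was 0.29 at 7 hours (108 and 121 against 92.5 and 95.5 CPM; SE 0.08, adjusted p = 0.0102) and 0.44 at 9 hours (122 and 123 against 90.2 and 92 CPM; SE 0.11, adjusted p = 0.0129). At 11 hours it was 0.53 (132 and 141 against 99.5 and 92.2 CPM; SE 0.13, adjusted p = 0.0303). At 1 hour the groups overlapped (97.1 and 97.9 against 90.9 and 108 CPM; -0.04), and the values at 3 and 5 hours were 0.25 (121 and 119 against 106 and 97.1 CPM; adjusted p = 0.128) and 0.17 (105 and 113 against 88.9 and 104 CPM; adjusted p = 0.313). These calls were lost without dex replicate 2 at 7 hours (0.20), without dex replicate 1 (0.45) or dex replicate 2 (0.44) at 9 hours, and without EtOH replicate 1 (0.57) or EtOH replicate 2 (0.46) at 11 hours. The change of the dex effect over time (adjusted p = 0.0981) passed in 4 of 24 fits that each left out 1 library, with adjusted p up to 0.304.

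*KLF3*, the repressor that works through CtBP, was called at no time point. Its libraries ranged from 40.5 to 57.9 CPM with EtOH (median 49.5) and from 48 to 62 with dex (median 53.3). The log2 fold changes lay between -0.05 and 0.24, and the 95% intervals together ran from -0.31 to 0.52, so a change of the size seen for *KLF4* or *KLF6* lies outside them. Without EtOH replicate 1 it passed at 7 hours (0.27, adjusted p = 0.0757) and at 9 hours (0.32, adjusted p = 0.0522).

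*KLF15*, known as a GC-induced regulator of amino acid and lipid metabolism, moved in both directions. At 1 hour it had 80.4 and 89.1 CPM with dex and 50.2 and 45.7 with EtOH (log2 fold change 0.81, SE 0.12, adjusted p = 0.000818). At 5 hours it had 43.4 and 44.2 against 15.7 and 10.6 CPM (1.75, SE 0.15, adjusted p = 2.6e-12), and at 9 hours 13.7 and 24.1 against 66 and 60.2 (-1.68, SE 0.21, adjusted p = 0.000414). So the same gene was higher with dex at 5 hours and lower at 9 hours, and in neither case did the groups overlap. At 7 hours it had 16.7 and 16.5 against 11 and 14 CPM (0.42, SE 0.15, adjusted p = 0.0485) and at 11 hours 16.3 and 17.3 against 12.3 and 14 (0.37, adjusted p = 0.382). At 3 hours the EtOH libraries differed from each other, with 24.8 and 49 CPM, and enclosed the dex libraries, with 33 and 28.4 (-0.28, SE 0.40, adjusted p = 0.772).
The 3-hour value of *KLF15* depended on these EtOH libraries. It was -0.68 without EtOH replicate 1 (adjusted p = 0.000483) and 0.31 without EtOH replicate 2 (adjusted p = 0.307). The 7-hour call was lost without dex replicate 1 (0.40), dex replicate 2 (0.42) or EtOH replicate 1 (0.25), with DESeq2 (adjusted p = 0.293) and in one fit over 24 libraries (adjusted p = 0.42), and the 11-hour value passed without dex replicate 1 (0.41, adjusted p = 0.0791). The 1-hour call was lost in one fit over 24 libraries (adjusted p = 0.16). The calls at 5 and 9 hours held without each library in turn.

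*KLF15* also varied over time in the vehicle. Its mean with EtOH was 47.9 CPM at 1 hour, 36.9 at 3 hours, 13.1 at 5 hours, 12.5 at 7 hours, 63.1 at 9 hours and 13.2 at 11 hours. Both EtOH libraries of 9 hours lay above all other EtOH libraries, and their mean was 5.05 times that at 7 hours and 4.8 times that at 11 hours. With dex the mean was 84.7 CPM at 1 hour, 30.7 at 3 hours, 43.8 at 5 hours and 16.6 to 18.9 from 7 hours on. The EtOH level differed between time points (adjusted p = 0.000282), which was so for 8 of the 15337 genes (0.0522%), and *KLF15* had the smallest adjusted p among them. It held in the 12 EtOH libraries alone (adjusted p = 0.0384) and without each of the 24 libraries in turn (adjusted p up to 0.00794). For the other 9 members the adjusted p of this test was between 0.29 and 0.878. The dex effect of *KLF15* differed between time points as well (adjusted p = 5.39e-05) and was smaller at 3 than at 1 hour by a log2 difference of -1.10 (SE 0.34, adjusted p = 0.0952). This step draws on the 3-hour EtOH libraries, which had 24.8 and 49 CPM, and it was not retested with a library left out. In the same fit the 1-hour effect itself did not pass (0.82, adjusted p = 0.16).
Of the 3 GC targets, *FKBP5* had 25 and 20.6 CPM with EtOH at 9 hours, against 20.9 to 27.5 CPM in the EtOH libraries of the other times. *PER1* and *TSC22D3* had their highest EtOH means at 9 hours. *PER1* had 10.2 and 6.7 CPM there, with a mean of 8.43 against 5.16 to 6.91 at the other times, and *TSC22D3* had 9.89 and 8.4, with a mean of 9.15 against 6.6 to 8.36. The test of the EtOH level over time was not passed by *FKBP5* (adjusted p = 0.294), *PER1* (adjusted p = 0.283) or *TSC22D3* (adjusted p = 0.416). The other genes whose EtOH level differed between time points were *CDKN1A*, *TPT1-AS1*, *SNRPN*, *DNAJB4*, *IL1RAPL1*, *TALDO1* and *DDIT4*. *IL1RAPL1*, which encodes a synaptic receptor accessory protein, had 7.51 and 7.05 CPM with EtOH at 1 hour and 7.49 and 7.6 at 9 hours, against 5.11 and 3.63 at 7 hours and 2.9 and 3.93 at 11 hours. *TALDO1*, an enzyme of the pentose phosphate pathway, had 287 and 328 CPM at 9 hours with EtOH and 168 and 193 at 7 hours. *DDIT4*, an inhibitor of mTOR signalling that is itself a GC target, was highest at 5 hours (99.1 and 79.8 CPM) and 11 hours (92.8 and 77.4), above the 62.8 and 68.5 at 9 hours. *CDKN1A* was highest at 11 hours (102 and 94.6 CPM), while *DNAJB4*, a gene of a heat shock protein, was lowest at 9 hours (62.1 and 55.8). *SNRPN* had 73.7 and 67.7 CPM with EtOH at 9 hours and 41 and 43.1 at 7 hours. *KLF15*, *IL1RAPL1*, *TALDO1* and *SNRPN* thus had their highest EtOH means at 9 hours, while *CDKN1A*, *TPT1-AS1*, *DNAJB4* and *DDIT4* did not. The 8 genes did not share one order of the time points. The part of culture conditions or handling in these differences was not tested.

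The genes whose log2 CPM over the 24 libraries were most like those of a member are given as a description, since all libraries share the same treatments and times. For *KLF9* they were *SYBU* (Pearson r = 0.988) and *CAVIN2* (0.985), for *KLF6* the regulator of G-protein signalling *RGS2* (0.982) and the apoptosis inhibitor *BIRC3* (0.979), and for *KLF4* the NF-kappaB inhibitor *NFKBIA* and the prostaglandin receptor *PTGER4* (both 0.956). For *KLF15* they were *IL1RAPL1* (0.882) and *SLIRP* (0.778), and for *KLF11* *ZFX* (0.895) and *ERI1* (0.854). For *KLF5* they were *PPP1R15B* (0.912) and *ZC3H12C* (0.909), for *KLF13* *PREX1* (0.900) and *TOP1* (0.895), and for *KLF10* *COG3* (0.860) and *CCDC84* (0.833).

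The rest of the KLF and SP family was measured as well. Of 16 further genes listed, 9 were tested, and the table held at most 10 counts in a library for *KLF1*, *KLF8*, *KLF17*, *SP5*, *SP7* and *SP8*. *KLF7*, an activator known from the nervous system, was called higher from 3 to 11 hours, with log2 fold changes of 0.47, 0.30, 0.44, 0.44 and 0.59. At 11 hours it had 111 and 102 CPM with dex and 69.8 and 73.7 with EtOH. Genes of SP proteins, which can bind the same GC boxes, were called lower at some time points. *SP4* was lower at 5 hours (4.92 and 2.91 against 7.77 and 8.24 CPM; -1.03, SE 0.25) and 7 hours (-0.98, SE 0.21), *SP9* at 7 hours (1.92 and 2.24 against 5.51 and 5.69 CPM; -1.43, SE 0.28) and 9 hours (-0.87, SE 0.27), *SP3* at 3, 5 and 7 hours (-0.59, -0.31 and -0.57) and *SP1* at 5 and 7 hours (-0.37 and -0.24). *SP2*, by contrast, was called higher at 9 hours (0.59, SE 0.22). Of the 9 genes of this list, none was called at 1 hour. At 3 hours 1 was higher and 1 lower, at 5 hours 1 and 3, at 7 hours 1 and 4, at 9 hours 2 and 1, and at 11 hours 1 and 0. Among all genes 8.42% were higher and 5.65% lower at 3 hours, 12.4% and 12.6% at 5 hours and 14.7% and 13.5% at 7 hours. The shares were 10.8% and 8.95% at 9 hours and 5.8% and 3.33% at 11 hours. The list's median log2 fold change was between -0.18 and -0.02.

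Genes that feed into KLF genes were called in both directions. Of 10 tested, 1 was higher and 0 lower at 1 hour, 2 and 3 at 3 hours, 2 and 2 at 5 hours, 3 and 2 at 7 hours, 2 and 2 at 9 hours, and 1 and 2 at 11 hours. Among all genes 1.06% were called at 1 hour, 14.1% at 3, 25% at 5, 28.2% at 7, 19.8% at 9 and 9.12% at 11 hours. The list's median log2 fold change was between -0.06 and 0.02. *TGFBR1*, the type I receptor of TGF-beta, rose at all 6 time points, from 378 and 341 against 259 and 257 CPM at 1 hour (0.47, SE 0.11, adjusted p = 0.0374) to 657 and 622 against 264 and 198 at 9 hours (1.49, SE 0.13). *SMAD3*, which carries the TGF-beta signal to the nucleus, was lower from 3 hours on, with 149 and 153 against 308 and 337 CPM at 3 hours (-1.09, SE 0.10) and 144 and 108 against 317 and 325 at 11 hours (-1.33, SE 0.15). *SMAD2*, which acts in the same way, was lower by less at 3, 5 and 7 hours (-0.28, -0.34 and -0.28), and *TGFBR2* was called higher at 7 hours (0.21). *NR3C1*, the gene of the GC receptor itself, was lower at 3, 9 and 11 hours (-0.61, -0.44 and -0.50). *MEF2D*, a target of ERK5 signalling upstream of *KLF2* and *KLF4*, was higher at 5 and 7 hours (0.42 and 0.59), and *MAPK7*, which encodes ERK5, was higher at 3 and 9 hours (0.45 and 0.46).

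Of 10 genes known to be bound or controlled by KLF proteins, 6 were tested. Of these 6, 1 was called higher at 1 hour, 4 at 3, 5, 7 and 11 hours and 5 at 9 hours. None was called lower at any time point. Among all genes 0.639% were called higher at 1 hour, 8.42% at 3, 12.4% at 5, 14.7% at 7, 10.8% at 9 and 5.8% at 11 hours. The list was drawn up with earlier results of these data known. *NOS3*, *S1PR1*, *AASS* and *DIO1* were not tested and held at most 8 counts in a library. *THBD*, the endothelial anticoagulant thrombomodulin controlled by *KLF2* and *KLF4*, had 146 and 137 against 67.9 and 67.9 CPM at 1 hour (1.06, SE 0.11) and 332 and 345 against 69 and 66.8 at 9 hours (2.34, SE 0.11). *CDKN1A*, the cell cycle inhibitor p21 controlled by *KLF4* and *KLF6*, was called from 3 hours on, with log2 fold changes between 0.92 and 1.57. *PRODH*, the proline-degrading enzyme controlled by *KLF15* in other tissues, had 5.09 and 4.69 against 0.723 and 1.49 CPM at 3 hours (2.08, SE 0.34) and was called through 11 hours (1.71, SE 0.34). *CCND1*, cyclin D1, was higher from 3 hours on by 0.34 to 0.66. *BCAT2*, a branched-chain amino acid enzyme that *KLF15* controls in muscle, was called at no time point. The list's median log2 fold change was 0.08 at 1 hour and between 0.79 and 1.03 later. Of 13 genes of cofactors and ubiquitin ligases of KLF proteins, none was called at 1 or 11 hours. At 3 hours 1 was higher and 0 lower, at 5 hours 1 and 2, at 7 hours 1 and 3, and at 9 hours 2 and 2. Of all genes 14.1% were called at 3 hours and 25% at 5 hours. The 4 of 13 at 7 and at 9 hours stand beside 28.2% and 19.8% of all genes. This list's median log2 fold change was between -0.10 and 0.05. *KAT2B*, an acetyltransferase, was higher at 7 and 9 hours (0.46 and 0.67), and *SMURF1*, a ubiquitin ligase, was lower at 5 and 7 hours (both -0.31). *SIN3A* was called lower at 7 hours (-0.28, SE 0.08), *CTBP1* lower at 9 hours (-0.40, SE 0.11) and *CTBP2* higher at 3 hours (0.30, SE 0.10).

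**Figure D4:**
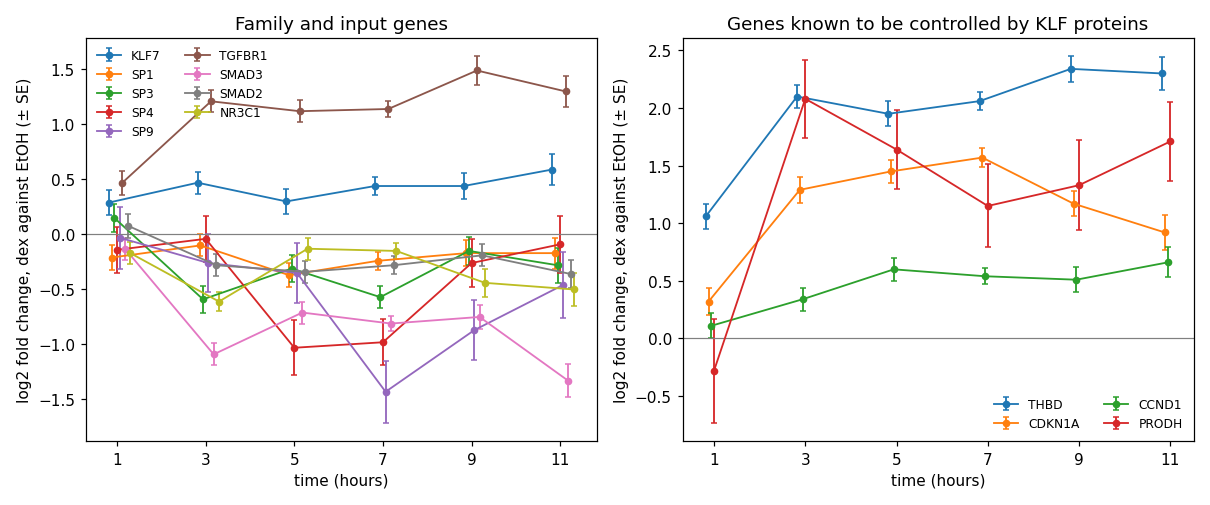
Log2 fold change of dex against EtOH (points, with SE as bars, slightly offset in time) against time in hours, for genes of the KLF and SP family and inputs to KLF genes (left) and for genes known to be controlled by KLF proteins (right). *TGFBR1* lies above 0 and *SMAD3* below 0 at 3 to 11 hours, and *THBD* lies above 1 throughout.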

How the data were processed

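RNA of A549 cells was sequenced with dex or EtOH at 6 time points. Libraries were stranded and poly-A selected. The authors aligned single-end reads with Bowtie to the transcripts of GENCODE, and samtools gave the reads per transcript. The labels name hg19. How reads matching several transcripts were placed, and the use of strand, are not given in the sources used here. The deposited values are raw counts, not normalized for depth or length. Triplicates are named in the paper's methods, and 2 replicates in the labels.

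Transcripts were joined to genes by identifier without version through GENCODE release 29 (110262 of 119207, 94.1% of counts) and summed. Coordinates are GRCh38. Promoter windows and start sites are from RefSeq, GRCh38.p14, and 8 of 10 members matched. Counts were tested with edgeR 4.0.16 (filterByExpr over 12 groups, TMM, robust quasi-likelihood test), with 1 fit per time point (2 against 2 libraries), Benjamini-Hochberg adjustment over 15337 genes and a threshold of 0.1. Changes over time used 1 fit over 24 libraries. Standard errors (SE) were taken as the absolute log2 fold change over the root of F. The biological coefficient of variation was 6.49% at 7 hours to 12.7% at 11 hours. The tests were checked on simulated counts. Each p-value rests on a spread that edgeR estimated from the libraries fitted and drew toward that of all genes. The 2 libraries of a group are labelled biological replicates, but the spread between them may be technical.

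Members and lists were chosen with earlier results of these data known. Members were described in full where called at 2 or more consecutive time points, listed genes and A549 markers so called were named, and the 2 genes most like each such member were found over genes with a mean log2 CPM of at least 1 (prior count 2). *SP2*, *TGFBR2*, *MAPK7*, *SIN3A*, *CTBP1*, *CTBP2* and *BCAT2*, and the 7 other genes with an EtOH level that changed over time, were named after their values were seen. Alternatives were DESeq2 1.42.0, its size factors, no filter or at least 10 counts in each library, a joint fit of all 24 libraries, a block for the replicate number, a 0.05 threshold, the transcript with the most counts, and leaving out each library. Leaving out each library in the tests over time was added after seeing the data. Same-numbered libraries did not deviate together at every time point.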

Additional observations from a re-analysis of the deposited data

Results flagged for a closer look

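The effect of dex differed between time points for 6 members, as it did for 15.4% of all genes. This was by the test of the difference itself, in one edgeR fit over 24 libraries adjusted over all genes. The adjusted p was 5.39e-05 for *KLF15*, whose log2 fold change ran from -1.68 at 9 hours to 1.75 at 5 hours, and 5.48e-05 for *KLF9*, which ran from 1.83 at 1 hour to 3.73 at 9 hours. It was 0.00248 for *KLF10* (-1.04 at 1 hour to 0.40 at 9 hours) and 0.0177 for *KLF11* (-1.12 at 5 hours to 0.27 at 3 hours). It was 0.0228 for *KLF6* (1.34 at 5 hours to 1.93 at 1 hour) and 0.0981 for *KLF13* (-0.04 at 1 hour to 0.53 at 11 hours). The results of *KLF6* and *KLF13* did not hold with each library left out in turn. For *KLF15* the EtOH mean was 12.5 CPM at 7 hours, 63.1 at 9 hours and 13.2 at 11 hours, while the dex mean was 16.6, 18.9 and 16.8. Its EtOH level also differed between time points (adjusted p = 0.000282 in the same fit). The part of the EtOH level in its change of direction was not tested. Groups of 2 libraries are too small to be searched for a library far from the others.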

How the results depend on the processing

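The calls of *KLF4*, *KLF6* and *KLF9* at all 6 time points, of *KLF10* at 1 and 3 hours, of *KLF11* at 5 and 7 hours and of *KLF15* at 5 and 9 hours kept their direction and passed under every alternative run. With DESeq2, 1208 genes were called at 3 hours, 2348 at 5 hours, 2464 at 7 hours (5 members) and 1831 at 9 hours. With no filter, 262 genes were called at 1 hour. In one fit over 24 libraries, 5 members were called at 7 hours and 2478 genes at 11 hours. The main tests were planned without pairs. Same-numbered dex and EtOH libraries deviated with a correlation of 0.157 at 1 hour, 0.111 at 9 hours and between -0.068 and 0.036 at the other times. The replicate block gave 583 genes at 1 hour, 4389 at 9 hours and 7 members with a dex effect that changed over time, and with it *KLF5* at 1 hour (0.50, adjusted p = 2.11e-05) and *KLF2* at 9 hours (-1.03, adjusted p = 0.0403) passed. Leaving out 1 library gave 88 to 691 genes at 1 hour, 1290 to 2598 at 3 hours, 2756 to 3333 at 5 hours, 2006 to 4821 at 7 hours, 1056 to 5297 at 9 hours and 720 to 4978 at 11 hours. The members called were 4 to 8 at 7 hours, 5 to 10 at 9 hours and 3 to 8 at 11 hours. In these fits the lone library of a group is taken to vary like the others. Leaving out 1 library turned the direction of 9 values, none of them called. Their log2 fold changes ranged from -0.15 to 0.05 (*KLF3*), -0.59 to 0.03 (*KLF11*) and -0.15 to 0.09 (*KLF13*) at 1 hour, from -0.59 to 0.35 (*KLF2*), -0.17 to 0.07 (*KLF3*) and -0.68 to 0.31 (*KLF15*) at 3 hours, from -0.37 to 0.72 (*KLF2*) at 5 hours, and for *KLF10* from -0.02 to 0.26 at 7 hours and from -0.37 to 0.17 at 11 hours. The cause of these shifts was not tested. *KLF2* held 7 to 34 counts in a library, and the part of its depth was not tested.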
